A study of Mus musculus with 6 samples.

Results

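Carbonic anhydrases are described here in the liver of DUhTP (marathon) mice and of unselected controls (DUC). The 8 genes Car1, Car2, Car3, Car4, Car5a, Car6, Car8 and Car14 were measured by 11 probe sets that carry no other gene symbol, out of 22626 tested probe sets and 12393 genes with such a probe set. They are 8 of the 16 carbonic anhydrase genes on the array, and they were chosen by their measured difference between the lines, which was known when the list was drawn up. Their values in this comparison are therefore a description and carry no test. No probe set with several symbols includes any of these genes.

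DUhTP is a line under long-term selection for high treadmill performance, and DUC is the unselected line. Both are non-inbred and go back to the same cross of outbred and inbred lines, and all mice were male and 70 days old. Each line was represented by 3 arrays (Affymetrix mouse genome GeneChip) of total liver RNA, described as pools in the methods and as single mice in the labels, so the SD values below are spreads among arrays. The purpose was to compare hepatic mRNA transcript abundance between the selected and the unselected line.

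Carbonic anhydrases are zinc enzymes that interconvert CO2 and water with bicarbonate and a proton. They differ in place: some are cytosolic, some sit on the plasma membrane, and some act inside mitochondria. In hepatocytes the mitochondrial enzyme supplies bicarbonate to pyruvate carboxylase and carbamoyl phosphate synthetase, the entry steps of gluconeogenesis and of urea synthesis. Expression is given as a PLIER intensity, a linear value in arbitrary units that summarizes the probes of a probe set. Since probe sets bind with unequal strength, intensities are compared between arrays and not between genes.

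Upstream sequences were taken from the RefSeq annotation of the mouse assembly GRCm38.p6 for the 4 of the 8 genes found in the table used (Car4, Car5a, Car6 and Car14). They are shown for Car14 and Car5a, which were more abundant in DUhTP arrays, and for Car6, whose arrays overlapped between the lines. Each run is the 250 bases before the annotated start of the gene, 5′ to 3′ on the strand of the gene. Capitals mark matches to the motifs searched on both strands: TATAAA (bound by TBP), CCAAT (bound by NF-Y), TTCNNNGAA (for STAT factors), CACGTG (the E-box of SREBP and clock factors), CAAAGTCCA (for HNF4A), GTTAAT (for HNF1) and GGGCGG (the GC box of Sp factors). The Car14 window is chr3:95904686-95904935, minus strand.
Car14: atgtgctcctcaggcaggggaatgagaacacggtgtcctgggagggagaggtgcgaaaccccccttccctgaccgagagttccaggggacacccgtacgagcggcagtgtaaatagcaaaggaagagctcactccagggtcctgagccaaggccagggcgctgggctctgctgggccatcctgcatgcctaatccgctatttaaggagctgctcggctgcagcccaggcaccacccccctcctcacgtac
The Car5a window is chr8:121944913-121945162, minus strand.
Car5a: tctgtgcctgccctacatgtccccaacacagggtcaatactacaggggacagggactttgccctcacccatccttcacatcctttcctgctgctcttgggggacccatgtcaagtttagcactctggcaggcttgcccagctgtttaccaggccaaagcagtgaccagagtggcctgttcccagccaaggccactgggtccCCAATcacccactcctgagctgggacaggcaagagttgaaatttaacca
The Car6 window is chr4:150201136-150201385, minus strand.
Car6: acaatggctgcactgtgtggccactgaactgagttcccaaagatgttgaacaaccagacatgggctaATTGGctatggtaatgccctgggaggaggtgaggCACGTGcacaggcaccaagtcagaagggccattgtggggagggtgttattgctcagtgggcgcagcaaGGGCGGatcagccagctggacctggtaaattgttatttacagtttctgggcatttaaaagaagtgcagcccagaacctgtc

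The Car14 window held no match to any of these letters and had a GC content of 62.0%. The Car5a window held CCAAT on the strand of the gene, beginning 49 bases before the start, and had a GC content of 56.0%. The Car6 window held CCAAT on the opposite strand (183 bases before the start), CACGTG (149 bases) and GGGCGG (81 bases), with a GC content of 52.4%. The Car4 window, chr11:84957504-84957753 on the plus strand, held none of the motifs. Over 32851 windows of the same length, 33.8% held CCAAT, 32.7% GGGCGG, 12.4% TATAAA, 7.02% TTCNNNGAA, 6.43% GTTAAT, 6.02% CACGTG and 0.384% CAAAGTCCA. These matches are letters in a window and are not shown to be bound. The windows of the other 4 genes were not analysed here.

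DUhTP livers had higher signals of Car3, Car14, Car1, Car5a and Car8, and overlapping signals of Car2, Car4 and Car6. On 7 of the 11 probe sets, from those 5 genes, every DUhTP array lay above every DUC array, and 0 probe sets showed the reverse. Among all tested probe sets 13.6% had their DUhTP arrays above the DUC arrays without overlap. In the fit across all probe sets, 3 of the 11 passed an adjusted p under 0.05 as higher (both of Car3 and the one of Car14) and 0 as lower, beside 1.36% of all probe sets that were higher. With 16 added to every intensity before the logarithm, which damps differences between weak signals, 7 of 11 passed as higher and 0 as lower, beside 3.92%. As the genes were chosen on this comparison, nothing is read from these shares. The median log2 fold change was 0.82 over the 11 probe sets and -0.02 over all, and with 16 added it was 0.67 and -0.01.

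**Figure D1:**
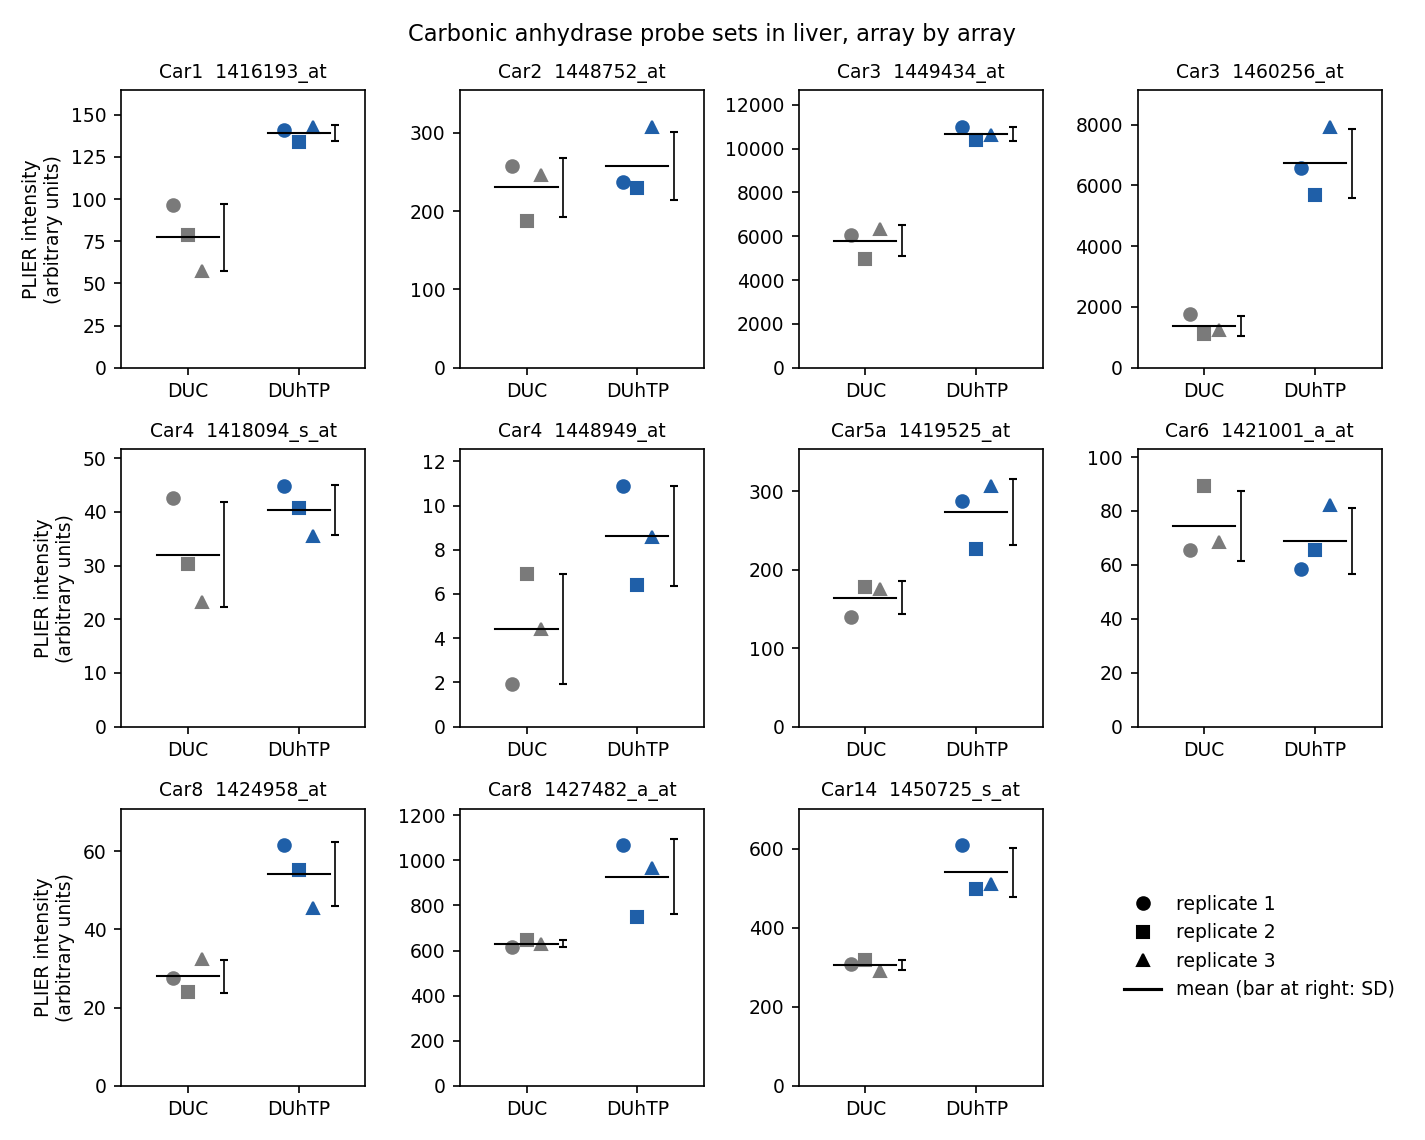
PLIER intensity (arbitrary units, linear axes from 0, own scale in each panel) of the 11 carbonic anhydrase probe sets on each of 3 DUC (grey) and 3 DUhTP (blue) arrays. Horizontal lines are means, bars at the right are SD, and marker shape gives the replicate number; the lines do not overlap for Car1, both Car3, Car5a, both Car8 and Car14 probe sets.

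Car3 encodes a cytosolic carbonic anhydrase of low hydratase activity that is abundant in liver, adipose tissue and skeletal muscle. Its probe set 1449434_at gave 11000, 10400 and 10600 on the DUhTP arrays and 6070, 4980 and 6340 on the DUC arrays. The lowest DUhTP array was 1.65 times the highest DUC array. The mean was 10700 ± 309 in DUhTP mice and 5800 ± 721 in controls (SD, n = 3 per line), an FC of 1.85 with a 95% interval of 1.48 to 2.31. Of all tested probe sets, 75 were brighter by their mean, and the highest intensity on an array was between 16787 and 17301.

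The other Car3 probe set, 1460256_at, gave 6560, 5690 and 7930 in DUhTP mice and 1750, 1100 and 1250 in controls. The lines were wider apart here, the lowest DUhTP array being 3.25 times the highest DUC array. The mean was 6730 ± 1130 against 1370 ± 340 (SD, n = 3 per line), an FC of 4.97 with a 95% interval of 3.41 to 7.24. Both Car3 probe sets thus pointed the same way with FCs whose intervals did not overlap.

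The disagreement in size was present on every array. The log2 ratio of 1460256_at over 1449434_at was -0.75, -0.88 and -0.41 on the DUhTP arrays and -1.79, -2.18 and -2.34 on the DUC arrays. The mean log2 ratio was -0.68 ± 0.24 in DUhTP mice and -2.10 ± 0.28 in controls (SD, n = 3 per line), a gap of 1.42 without overlap. Among the 47 genes with at least 2 probe sets past the threshold, the median gap in log2 fold change between probe sets of a gene was 0.24, and 4 genes, Car3 included, had a gap at least as wide as that of Car3. The ratio shows that both Car3 signals changed unequally, and the cause was not tested. The probe sequences were not used here.

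Leaving out any 1 array kept the log2 fold change of 1449434_at between 0.78 and 0.96 and that of 1460256_at between 2.17 and 2.50. On these smaller sets 1449434_at passed the adjusted threshold in 0 of 6 fits and 1460256_at in 2 of 6, without DUhTP replicate 2 and without DUC replicate 1. With 16 added both passed in 6 of 6 fits. The direction was thus the same in all of these fits, while the call without an added constant needed all 6 arrays for 1449434_at.

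Car14 encodes a carbonic anhydrase anchored in the plasma membrane with its active site outside the cell, and it is known from hepatocyte membranes. Its probe set 1450725_s_at gave 610, 499 and 510 in DUhTP mice and 307, 317 and 291 in controls. The means were 540 ± 61.2 and 305 ± 13.2 (SD, n = 3 per line), an FC of 1.76 with a 95% interval of 1.43 to 2.18. Its log2 fold change stayed between 0.73 and 0.87 with any 1 array left out, and it passed the adjusted threshold in 0 of these 6 fits and in 6 of 6 with 16 added. The suffix of this probe set marks probes that can match several transcripts.

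**Figure D2:**
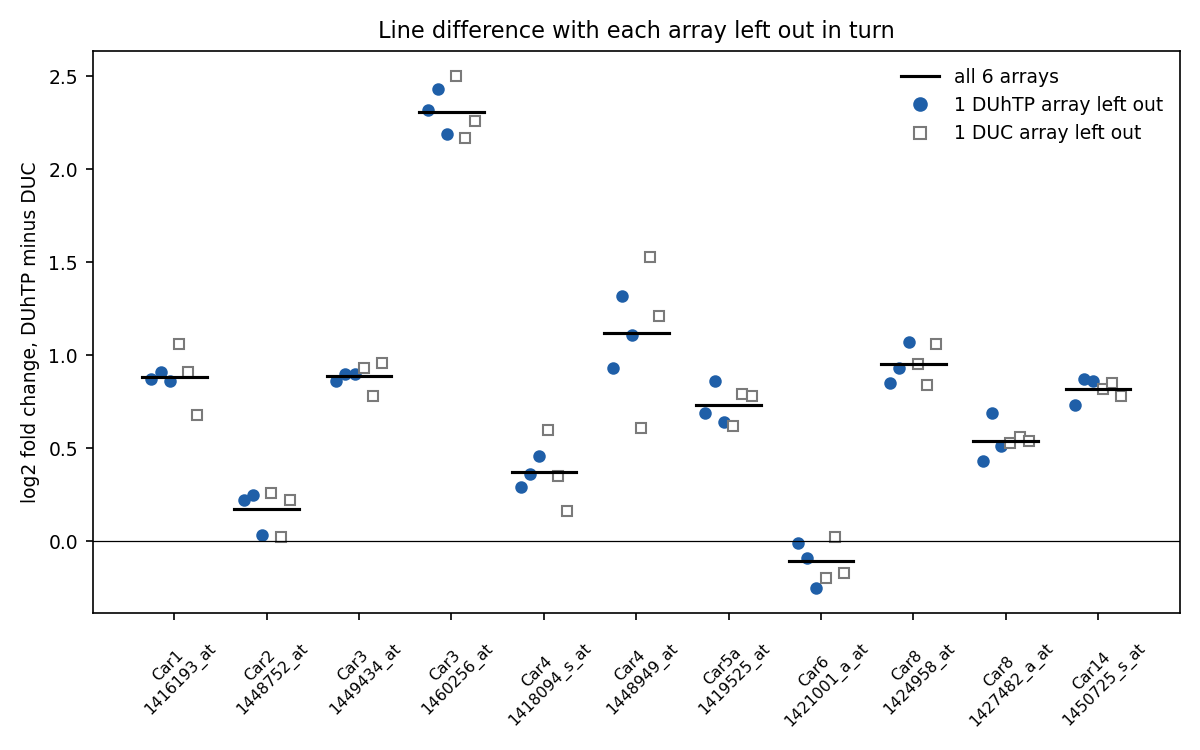
Log2 fold change (DUhTP minus DUC, y axis) of each carbonic anhydrase probe set with all 6 arrays (line) and with 1 DUhTP array (filled circle) or 1 DUC array (open square) left out. Car6 crosses 0, reaching 0.02 without DUC replicate 2, while Car3 1460256_at stays between 2.17 and 2.50.

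Car5a encodes the mitochondrial carbonic anhydrase of hepatocytes. Its probe set 1419525_at gave 288, 226 and 307 in DUhTP mice and 140, 178 and 175 in controls. No DUC array reached the lowest DUhTP array, which was 1.27 times the highest DUC array. The means were 273 ± 42.4 and 164 ± 20.9 (SD, n = 3 per line), an FC of 1.66 with a 95% interval of 1.24 to 2.22. It did not pass the adjusted threshold without an added constant and passed with 16 added, where it kept the call in 1 of 6 fits with an array left out.

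Car8 encodes a carbonic anhydrase-related protein that lacks the catalytic activity of the family. The brighter of its probe sets, 1427482_a_at, gave 1070, 747 and 967 in DUhTP mice and 616, 646 and 631 in controls, with means of 930 ± 167 and 631 ± 14.8 (SD, n = 3 per line). Its FC was 1.46 with a 95% interval of 1.11 to 1.91. The dimmer 1424958_at gave 61.7, 55.2 and 45.6 against 27.6, 24.0 and 32.4, with means of 54.2 ± 8.09 and 28 ± 4.23. Its FC was 1.93 with a 95% interval of 1.44 to 2.60, so the intervals of the Car8 probe sets overlapped. The lines did not overlap on either probe set, and both passed with 16 added but not without. With 16 added and 1 array left out, 1427482_a_at kept the call in 1 of 6 fits and 1424958_at in 4 of 6.

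Car1 and Car2 encode cytosolic carbonic anhydrases that are well known from erythrocytes, and Car2 is found in many other cells. Car1 on 1416193_at gave 141, 134 and 143 in DUhTP mice and 96.7, 78.6 and 57.1 in controls. The DUhTP arrays were close together (139 ± 4.87) and the DUC arrays were spread (77.5 ± 19.8, SD, n = 3 per line), and the FC was 1.84 with a 95% interval of 1.29 to 2.62. It passed the adjusted threshold with 16 added but not without, and with 16 added it kept the call in 4 of 6 fits with 1 array left out. Car2 on 1448752_at gave 237, 229 and 308 in DUhTP mice and 258, 187 and 246 in controls. Its arrays overlapped, and the FC of 1.12 had a 95% interval of 0.814 to 1.55.

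Markers of erythroid cells are given beside Car1 and Car2, as liver RNA includes that of blood cells. In bulk tissue fewer cells of a type and less RNA per cell cannot be told apart. Of 8 measured erythroid genes, 1 passed as higher and 0 as lower, beside 1.92% of all genes higher and 1.40% lower. Alas2, the erythroid enzyme of heme synthesis, gave 1560, 1190 and 1200 in DUhTP mice and 715, 763 and 650 in controls (log2 fold change 0.88, SE 0.15, limma adjusted p = 0.0499). At an unadjusted p under 0.05 by limma there was 1 higher and 2 lower, Epb42 and Tfrc. Epb42 stood at -0.43 on 1417338_at and Tfrc at -0.66 on 1452661_at, but at -0.03 on its brightest probe set. The share of all genes at this unadjusted p is not given here, so nothing is read from these counts. The summed intensity of the list was 1610 to 1960 in DUhTP mice and 1090 to 1170 in controls. Most of it came from Alas2, so the sum is no measure of erythroid content. The alpha globin gene Hba-a1 had a mean of 43.4 ± 8.04 against 46.2 ± 9.98 (SD, n = 3 per line), and the erythroid anion exchanger Slc4a1 had 63.2 ± 9.87 against 55.5 ± 8.55 on its brightest probe set. No erythroid marker was listed at 0, and the part of blood cells in the Car1 values was not tested.

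Car4 encodes a carbonic anhydrase attached to the outer face of the plasma membrane by a lipid anchor and Car6 a secreted form best known from saliva. Car4 on 1418094_s_at gave 44.9, 40.8 and 35.5 in DUhTP mice and 42.6, 30.3 and 23.3 in controls, with an FC of 1.29 and a 95% interval of 0.856 to 1.95. On 1448949_at it gave 10.9, 6.40 and 8.58 against 1.93, 6.90 and 4.41, the only one of the 11 probe sets in the dimmest 33.3% of all. The lines overlapped on both. The log2 fold change of 1448949_at was 1.12 without a constant and 0.27 with 16 added. Car6 on 1421001_a_at gave 58.6, 65.7 and 82.4 in DUhTP mice and 65.6, 89.4 and 68.6 in controls. Its log2 fold change was -0.11 with a 95% interval of -0.58 to 0.35, and it moved to 0.02 without DUC replicate 2, so no direction is given.

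The 3 DUhTP arrays did not rank alike. DUhTP replicate 2 was the lowest of its line on 8 of the 11 probe sets and the highest on 0, replicate 1 was the highest on 6 and replicate 3 on 5. Among the DUC arrays, replicate 2 was the highest on 5 and the lowest on 4, and replicate 1 the highest on 4 and the lowest on 4. The median intensity of the array was 53.1 for DUhTP replicate 2 and between 56.3 and 57 for the other 5 arrays. Without DUhTP replicate 2 the log2 fold change of Car5a was 0.86, and with all arrays it was 0.73.

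Car1, Car2, Car3 and Car14 lie on chromosome 3, Car4 on chromosome 11, Car5a on chromosome 8 and Car6 and Car8 on chromosome 4. In the RefSeq gene order of GRCm38.p6, Car13, Car1, Car3 and Car2 follow each other. Within this cluster the log2 fold change was -0.20 for Car13 (adjusted p = 0.782 from limma), 0.88 for Car1, 0.89 for Car3 on its brightest probe set and 0.17 for Car2. E2f5, a cell cycle transcription factor beside the cluster, stood at -0.27 (adjusted p = 0.238 from limma). Differences between these fold changes were not tested.

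The remaining 8 carbonic anhydrases of the array (Car5b, Car7, Car9, Car10, Car11, Car12, Car13 and Car15) had a median log2 fold change of 0.04 on their brightest probe sets, against 0.00 over all genes. Of them 1 rose and 0 fell, beside 1.92% of all genes higher and 1.40% lower. The one that rose was Car7, a cytosolic form best known from brain, with 28.2, 39.7 and 60.2 in DUhTP mice and 12.1, 7.80 and 11.2 in controls (log2 fold change 2.0, SE 0.32, limma adjusted p = 0.0435). Its probe set is in the dimmest 33.3%, and its log2 fold change with 16 added was 1.12 (limma adjusted p = 0.00587). Car11, the brightest of the others, had 63.3 ± 9.61 against 68.3 ± 10 (SD, n = 3 per line), and Car9, the hypoxia-inducible membrane form, had 21.6 ± 8.70 against 28 ± 3.40.

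**Figure D3:**
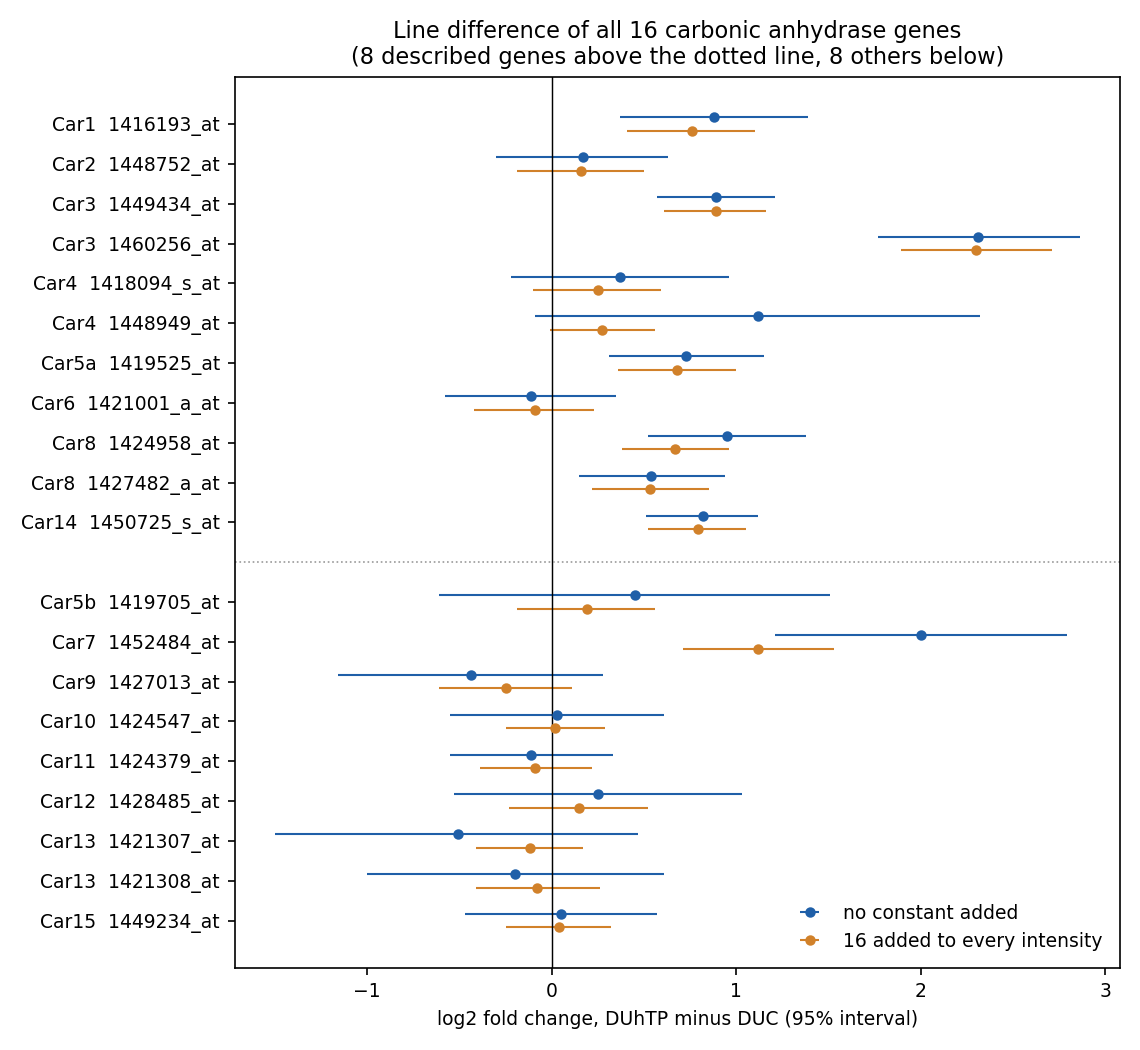
Log2 fold change (DUhTP minus DUC, x axis) with its 95% interval for every probe set of the 16 carbonic anhydrase genes, without an added constant (blue) and with 16 added (orange). Car3 1460256_at lies farthest to the right, at 2.31, and Car7 moves from 2.0 to 1.12 when 16 is added.

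Of 10 enzymes that use bicarbonate or attach the biotin needed for it, 1 rose and 1 fell, beside 1.92% of all genes higher and 1.40% lower, and their median was -0.17. Mccc1, a subunit of the carboxylase of leucine breakdown, had 713, 735 and 789 in DUhTP mice and 496, 491 and 451 in controls (log2 fold change 0.64, SE 0.11, limma adjusted p = 0.0475). Acacb, the acetyl-CoA carboxylase that restrains fatty acid oxidation, had 74.9, 74.5 and 81.2 against 129, 165 and 166 (log2 fold change -0.99, SE 0.14, limma adjusted p = 0.0331). The lines were apart without overlap for both genes.

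The mitochondrial users of bicarbonate named above did not pass the test. Pyruvate carboxylase (Pcx) had a mean of 1560 ± 406 in DUhTP mice and 1670 ± 150 in controls (SD, n = 3 per line; limma adjusted p = 0.791), and its log2 fold change of -0.13 moved to 0.11 without DUhTP replicate 3. Carbamoyl phosphate synthetase (Cps1) had 8370, 7620 and 8860 against 10800, 9900 and 10500 (log2 fold change -0.33, SE 0.11, limma adjusted p = 0.177). All 3 DUhTP arrays of Cps1 were below the DUC arrays, but the difference missed the threshold.

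Among 9 measured genes of the urea cycle and ammonia handling, 0 passed in either direction by limma at an adjusted p under 0.05, and at an unadjusted p under 0.05 there was 1 higher and 4 lower. No share of all genes is given beside unadjusted counts, so nothing is read from them here or in the lists below. With 16 added, 0 passed as higher and 2 as lower, beside 5.31% of all genes higher and 6% lower. The 2 were Arg1, the arginase that releases urea, with 6020 ± 815 against 9000 ± 280 (log2 fold change -0.59 both ways, limma adjusted p = 0.0843 without a constant and 0.0188 with 16 added), and Asl, argininosuccinate lyase, with 3800 ± 482 against 5990 ± 248 (SD of 3 arrays in each line; log2 fold change -0.66, limma adjusted p = 0.0645 and 0.0102).

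Of 11 measured bicarbonate transporters 0 passed either way by limma, with 1 higher and 1 lower at an unadjusted p under 0.05. With 16 added 1 fell: Slc4a4, a sodium bicarbonate cotransporter, with 145, 137 and 133 in DUhTP mice and 244, 185 and 198 in controls on 1421225_a_at (limma adjusted p = 0.0284, and 0.0932 without a constant). Its probe set 1452071_at also passed with 16 added (limma adjusted p = 0.0235), while 1426432_a_at (0.135) and 1450169_at (0.251) did not. Among all genes 1.92% passed as higher and 1.40% as lower, and 5.31% and 6% with 16 added. Of 5 measured transporters of protons and lactate 0 passed either way, with 0 higher and 2 lower at an unadjusted p under 0.05. With 16 added 1 fell: Slc16a7, a monocarboxylate transporter, with 231 ± 37.3 against 335 ± 16 (limma adjusted p = 0.0375, and 0.119 without a constant). The general lactate transporter Slc16a1 had 640 ± 23.7 in DUhTP mice and 563 ± 65.4 in controls (SD, n = 3 per line). Over these lists and the sex-biased genes below, 7 genes passed with all arrays and 0 to 4 with 1 array left out.

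**Figure D4:**
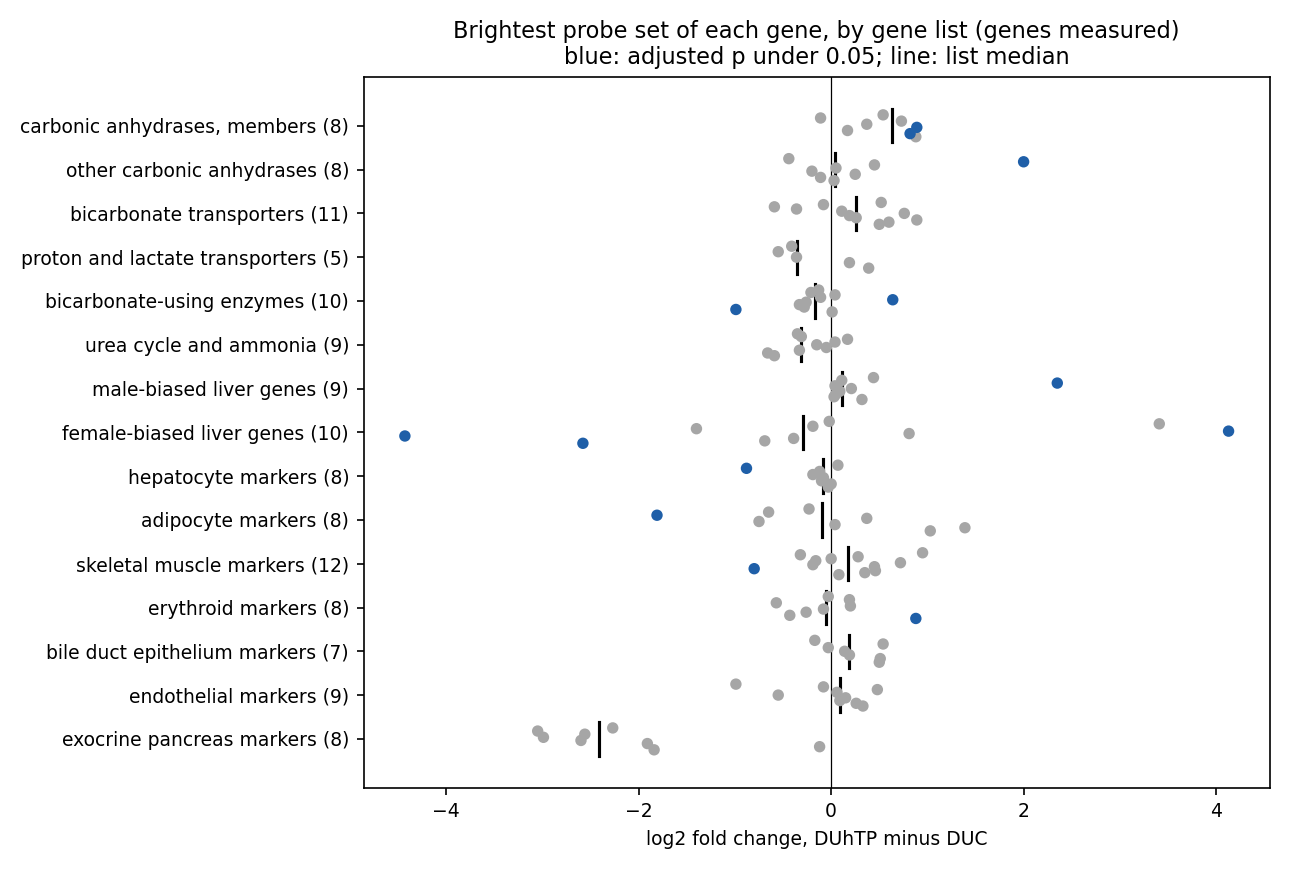
Log2 fold change (DUhTP minus DUC, x axis) of the brightest probe set of each measured gene, by gene list, with the number of genes in parentheses. Blue points have an adjusted p under 0.05, grey points do not, and the black line is the median of the list; carbonic anhydrases chosen for this comparison have a median of 0.64 and exocrine pancreas markers one of -2.42.

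Car3 is known as a gene of growth hormone and sex-dependent abundance in rodent liver, so lists of sex-biased liver genes are given beside it. Of 9 male-biased genes 1 rose and 0 fell, with a median of 0.11. The one that rose was Hsd3b5, a steroid dehydrogenase of male liver, with means of 2820 ± 201 in DUhTP mice and 564 ± 122 in controls (log2 fold change 2.35, SE 0.19, limma adjusted p = 0.0105). Of 10 female-biased genes 1 rose and 2 fell, with a median of -0.29, beside 1.92% of all genes higher and 1.40% lower. With 16 added 2 rose and 3 fell, beside 5.31% of all genes higher and 6% lower. Cyp2b9, a cytochrome P450, rose from 63.5 ± 6.94 to 1130 ± 245 (limma adjusted p = 0.00708), while Cyp17a1, a steroidogenic cytochrome P450, fell from 406 ± 64.6 to 21.2 ± 10.8 (limma adjusted p = 0.0200) and Abcd2, a peroxisomal fatty acid transporter, fell from 41.6 ± 11.5 to 6.84 ± 1.04 (limma adjusted p = 0.0122). The probe set of Abcd2 is in the dimmest 33.3%, and its log2 fold change was -2.58 without a constant and -1.32 with 16 added. Hao2, a peroxisomal hydroxy acid oxidase, had 96.7 ± 22.9 against 11.4 ± 7.86 (log2 fold change 3.41, limma adjusted p = 0.0661) and passed with 16 added (2.06, limma adjusted p = 0.000623), as did Acot3, an acyl-CoA thioesterase, which fell (limma adjusted p = 0.0351). Genes of the female-biased list thus passed in both directions.

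Markers of tissues that also carry Car3 are given beside it. Over all genes 1.92% passed as higher and 1.40% as lower, and 5.31% and 6% with 16 added. Of 8 adipocyte genes 0 passed as higher and 1 as lower, Lpl, the lipoprotein lipase, with 102 ± 24.1 in DUhTP mice and 352 ± 52.5 in controls (log2 fold change -1.81, limma adjusted p = 0.0257), and with 16 added Fabp4, a fatty acid binding protein, fell too on 1417023_a_at (limma adjusted p = 0.00977). The 4 probe sets of Fabp4 disagreed in sign, with log2 fold changes from -0.75 to 0.31. The summed intensity of the adipocyte list was 388 to 452 in DUhTP mice and 730 to 804 in controls. Lpl contributed most to this difference, so the sum is no measure of adipocyte content. The adipocyte hormone Adipoq lay between 2.03 and 11.7 on all 6 arrays (log2 fold change 1.03, limma adjusted p = 0.445). Of 12 skeletal muscle genes 0 rose and 1 fell, Mb, the myoglobin gene (log2 fold change -0.80, limma adjusted p = 0.0453), and the summed intensity was 257 to 298 against 280 to 292. No marker of either list was listed at 0, and the part of adipose or muscle RNA in the Car3 values was not tested.

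The hepatocyte markers were present in both lines, with 13800 ± 415 in DUhTP mice and 14100 ± 317 in controls for the albumin gene Alb (SD, n = 3 per line). Of 8 hepatocyte markers 0 rose and 1 fell, Tat, the tyrosine aminotransferase (log2 fold change -0.88, limma adjusted p = 0.0370). Beside this and the adjusted counts below, 1.92% of all genes passed as higher and 1.40% as lower. With 16 added these shares were 5.31% and 6%. Of 7 bile duct and 9 endothelial markers 0 passed either way, with 1 higher and 0 lower and with 1 higher and 1 lower at an unadjusted p under 0.05, and their summed intensities were 2940 to 3350 against 2490 to 2630 and 3070 to 3370 against 2790 to 2940. Most of the bile duct sum came from the keratins Krt18 (2010 against 1760) and Krt8 (988 against 678). Krt7, Krt19 and Epcam had means of 10.3, 26.2 and 11.8 in DUhTP mice and 10.2, 23.3 and 7.22 in controls, so the sum is no measure of bile duct content. With 16 added Krt8 and the endothelial receptor Stab2 rose and Vwf, von Willebrand factor, fell. Of 8 markers of exocrine pancreas 0 passed by limma, with 0 higher and 5 lower at an unadjusted p under 0.05, and with 16 added 4 fell (Prss2, Cela3b, Cpb1 and Ctrb1). The unadjusted counts again have no share of all genes beside them. The summed intensity of the pancreas markers ran from 996 to 4060 in DUhTP mice and from 4620 to 8950 in controls. It was lowest on DUhTP replicate 2, the array that was also lowest in its line for most carbonic anhydrase probe sets. Between the lines the median log2 fold change was -2.42 for the pancreas markers and 0.64 for the chosen carbonic anhydrases. The part of pancreatic RNA in the carbonic anhydrase values was not tested.

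The probe sets whose profile over the 6 arrays was closest to that of each Car3 probe set were listed from 7681 candidates with a mean intensity of at least 100. Likeness was the root mean square difference of log2 intensities, each centred on its own mean. Nearest to 1449434_at were Akr1c21, a hydroxysteroid dehydrogenase (0.081), Lasp1, an actin-binding protein (0.102), Irgm2, an interferon-inducible GTPase (0.106), Gsta3, a glutathione transferase (0.107), and Prnp, the prion protein (0.109). Their means in DUhTP mice and controls were 155 and 88.0 for Akr1c21 and 4260 and 2310 for Gsta3.

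Nearest to 1460256_at were Ndrg1 on 2 probe sets (0.163 and 0.208), Dct, the dopachrome tautomerase (0.203), Idi1, an isomerase of cholesterol synthesis (0.235), and Aqp8, a water channel (0.236). The mean of Aqp8 was 976 ± 44.6 in DUhTP mice and 160 ± 15.9 in controls (SD, n = 3 per line), and that of Idi1 was 395 ± 73.4 and 86.2 ± 6.73. The Car3 probe sets differed from each other by 0.743 on this measure. Nearness on this measure includes the size of the line difference, so a like fold change among the nearest probe sets is part of the choice.

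**Figure D5:**
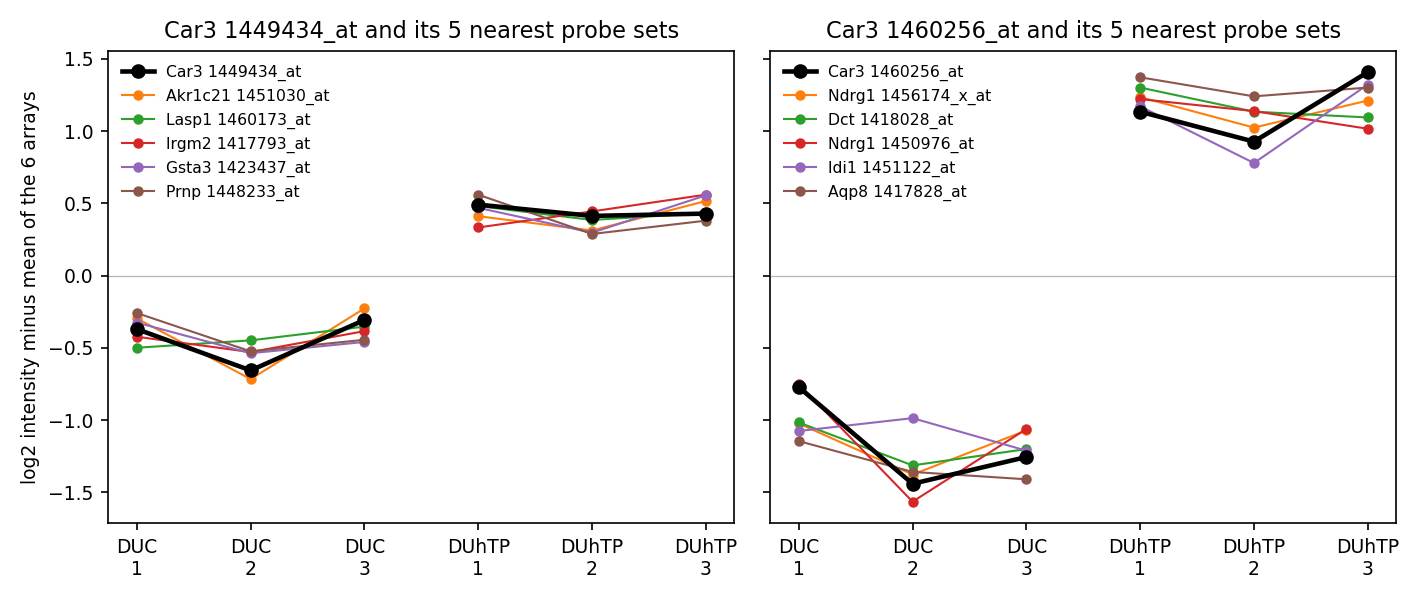
Log2 intensity minus its mean over the 6 arrays (y axis) on each array (x axis, line and replicate number) for both Car3 probe sets (black) and the 5 nearest probe sets of each (coloured). Lines join arrays of 1 line for reading only; the profiles on the left span a log2 difference of 0.89 for Car3 and those on the right one of 2.31.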

How the data were processed

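Global scaling was done by the authors with GCOS 1.1.1 and expression was summarized with PLIER in Array Assist. The deposited values are linear PLIER intensities in arbitrary units. The PLIER version and any added constant are not given in the sources used here. Of 22690 probe sets, 64 controls were left out and 22626 tested. Intensities were logged to base 2 without a constant, and the 3 DUhTP arrays were set against the 3 DUC arrays with limma 3.58.1 in R 4.3.3 (lmFit, eBayes, no block), with Benjamini-Hochberg adjustment over all 22626 and a threshold of 0.05. A gene was called if 1 or more probe sets bearing only its symbol passed, and medians use the brightest. Symbols came from the platform annotation.

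The members and gene lists were chosen with earlier results of these data known. Named were all members, from each list the called genes (at most 4) and up to 2 of the brightest others, and the 5 probe sets nearest to each Car3 probe set. Genes called only with 16 added, gene order neighbours and further markers were named after their values were seen. Alternatives were 16 added to each intensity, quantile normalization, leaving out the dimmest 33.3%, limma-trend, array weights, a replicate block and leaving out each array. Same-numbered arrays had correlations of deviations of 0.00341, 0.00480 and 0.0667 for replicates 1, 2 and 3. The highest with another number were 0.0281, 0.0273 and -0.0318. No pairing by number was used in the fit, but 3 arrays per line cannot exclude a weak one. The procedure was also run on simulated data, whose outcome is not given here, so nothing is read from it. Within DUhTP the lowest correlation between 2 arrays was 0.959, and within DUC 0.974. Whether the arrays hold pools or single mice is unsettled, so the spread among arrays is not read as that among mice. The p-values set the line difference against this spread, moderated over all probe sets by limma. The number of arrays limits the precision.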

Additional observations from a re-analysis of the deposited data

How the results depend on the processing

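Counts of calls depended on the treatment of weak signals and on the number of arrays. Of the carbonic anhydrase probe sets 3 passed as reported. With 16 added 7 passed, without the dimmest 33.3% 6, with limma-trend 7, with quantile normalization 3 and with array weights 4. Calls over the whole array moved as well, with 546 probe sets as reported and 1951 with 16 added. They were 1854 without the dimmest 33.3%, 2350 with limma-trend, 684 with quantile normalization and 690 with array weights. Leaving out 1 array gave 0 to 1, with 0 without DUhTP replicate 1, DUhTP replicate 3, DUC replicate 2 or DUC replicate 3, and with 16 added as well it gave 3 to 7 (5 without DUhTP replicate 1 or 3). Over the whole array 1 to 122 probe sets passed with 1 array left out, and 771 to 1591 with 16 added as well. With a replicate block 0 of 11 passed, as did 0 of all probe sets. At an unadjusted p under 0.05 by limma there were 7 of 11 with the block and 7 to 8 with 1 array left out. The share of all probe sets at this unadjusted p is not given here. As the genes were chosen on this comparison, nothing is read from these unadjusted counts.

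Of the 61 genes in the lists of bicarbonate handling and sex bias, 7 passed as reported, 13 with 16 added, 12 without the dimmest 33.3%, 15 with limma-trend, 0 with the replicate block and 0 to 4 with 1 array left out (0 without DUC replicate 2, 1 without DUC replicate 3, 2 without DUhTP replicate 3, 3 without DUC replicate 1 and 4 without DUhTP replicate 1 or 2). Of the 60 marker genes, 4 passed as reported, 12 with 16 added, 7 without the dimmest 33.3%, 14 with limma-trend, 0 with the replicate block and 0 to 1 with 1 array left out (1 without DUhTP replicate 1 or 2). Unadjusted, 20 and 13 genes had a p under 0.05 by limma with the block. No share of all genes is given beside these counts, so nothing is read from them.

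With 1 array left out the log2 fold change turned sign for Car6 (-0.25 to 0.02, the latter without DUC replicate 2, also with 16 added) and, without DUhTP replicate 3, for Car11 (-0.24 to 0.02) and Pcx (-0.26 to 0.11). The other members kept their direction under every alternative run. Low signals limit Car4 on 1448949_at, Car7 and Abcd2. The cause of these changes was not tested, apart from the smaller number of arrays or probe sets that some alternatives have by construction.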
